A study of Danio rerio with 20 samples.

Results

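The 10 synchronized neurons of the series, single cells of the zebrafish pallium, were ranked by their level of eomesa (ENSDARG00000006640), and the 5 cells with the highest level, called eomesa-high, were set against the 5 with the lowest, called eomesa-low. These cells are 10 of the 20 single-cell libraries deposited, and the other 10 are non-synchronized neurons. All the cells came from Dc, the central zone of the dorsal pallium, of Tg(HuC:H2B-GCaMP6f) zebrafish at 4 to 5 weeks of age, in which a pan-neuronal promoter drives a nuclear calcium indicator. Every cell, in both sides and in the non-synchronized group, was collected by glass pipette after the fish had been exposed to conspecific alarm substance (CAS), and the authors sorted the cells as synchronized or not from two-photon calcium imaging. The cells differed in no labelled treatment, genotype or age between the eomesa-high and eomesa-low sides. Each library was 1 cell, and no source used here says which cells shared a fish, so a side counts as 1 sample and no test was run. The spread given below is over cells (SD, n = 5 a side unless stated).

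Eomesa is a T-box transcription factor, the fish relative of mouse Eomes (Tbr2). In the mouse it marks intermediate progenitors of cortical glutamatergic neurons and stays on in a few mature neuron types, among them the mitral cells of the olfactory bulb. In teleost fish the pallium forms by eversion and holds the glutamatergic neurons of the dorsal telencephalon, where tbr1b, the neurod genes and bhlhe22 are familiar markers.

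Values are in CPM, the counted reads of a gene scaled by the total of its library. The eomesa level was 1548, 1525, 1493, 1214 and 1130 CPM in the eomesa-high cells 9, 20, 6, 16 and 21, against 893, 303, 188, 132 and 0.786 CPM in the eomesa-low cells 14-1, 4, 22, 4-1 and 5. The last value is a single read. The sides were chosen by these eomesa values, which are therefore a description only. The boundary ran between cell 21 at 1130 CPM and cell 14-1 at 893 CPM, whose 95% Poisson intervals, which cover counting error only, were 1087 to 1174 CPM and 849 to 938 CPM. The widest step in the ranking lay elsewhere, 590 CPM between cell 14-1 and cell 4, so cell 14-1 belongs to the eomesa-low side by rank and lies nearer to the eomesa-high cells in level. No cell changed side under 2 other scalings or after thinning every library to the depth of the shallowest. Among the non-synchronized cells 8 of 10 had eomesa reads, with a highest level of 3104 CPM and a mean of 514 ± 948 CPM (SD, n = 10).

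**Figure D1:**
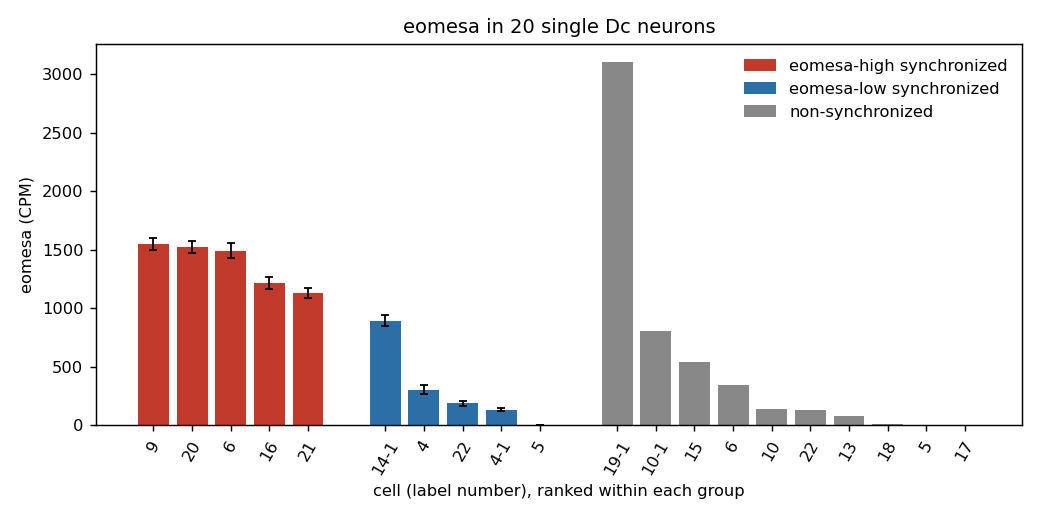
Level of eomesa in CPM (y axis) in each of the 20 cells (x axis, label number), with 95% Poisson intervals on the synchronized cells. The 5 eomesa-high cells sit between 1130 and 1548 CPM, cell 14-1 follows at 893 CPM, and the non-synchronized cells run from 0 to 3104 CPM.

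Total counts were 1299507 to 2322879 in eomesa-high cells and 795838 to 2493351 in eomesa-low cells. Genes detected numbered 7980 to 10878 in eomesa-high and 6878 to 10150 in eomesa-low cells, and mitochondrial reads were 2.09% to 7.36% of the total in eomesa-high and 2.17% to 14% in eomesa-low cells, so the sides overlapped in all of these. The label calls the cells neurons, and the summed level of 5 neuron markers was 4141 to 9940 CPM in eomesa-high cells and 4973 to 7833 CPM in eomesa-low cells. Glutamate transporter genes were read in all 10 cells. Markers of other cell types stood apart in single cells of both sides. On the eomesa-high side, cell 9 held 271 CPM of endothelial genes, the most of the 10 cells, cell 6 held 155 CPM of red blood cell genes and cell 20 held 37.6 CPM of microglia genes. On the eomesa-low side, cell 4-1 held 683 CPM of the genes of GABA synthesis and transport and 1859 CPM of oligodendrocyte genes, cell 14-1 held 381 CPM of microglia genes, and cell 5 held 4381 CPM of red blood cell genes. Their part in the differences was not tested, and the main counts are also given without cells 4-1 and 5.

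The cells of the eomesa-high side resembled each other more than those of the eomesa-low side did. Over the genes described, Spearman correlations between the 10 pairs of eomesa-high cells ran from 0.44 to 0.61 with a median of 0.52. Those between the 10 eomesa-low pairs ran from 0.32 to 0.44 with a median of 0.36. Those across the sides ran from 0.28 to 0.55 with a median of 0.42 (25 pairs), overlapping both. Eomesa-low cell 22 had 0.46 to 0.55 with the eomesa-high cells and 0.36 to 0.44 with the other eomesa-low cells. Each correlation is across genes of 2 libraries that differ in depth, and pairs that share a cell are not independent, so these values are a description.

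For 9040 genes with a mean of at least 10 CPM over the 10 cells, the difference was taken as the mean log2(CPM + 10) of eomesa-high cells minus that of eomesa-low cells. A gene was called when the difference was at least 1 in size and the 5 cells of one side all lay above the 5 of the other. By this rule 75 genes were called higher in eomesa-high cells, 0.830% of the genes described, and 47 were called lower, 0.520%. The median difference of all genes described was 0.08. Without cells 4-1 and 5 the same rule called 181 genes higher and 210 lower. The condition of no overlap is easier to meet with fewer cells. Leaving out any 1 cell also raised both counts, to 91 to 164 higher and 62 to 104 lower. With the split moved to the widest step in eomesa, so that cell 14-1 joined the eomesa-high side (6 cells against 4, chosen after seeing the data), 88 genes were called higher and 58 lower, of which 11 and 13 were among the 75 and 47. Since the rule itself requires the sides to stay apart, the called genes are described below and no support is drawn from their separation.

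The largest difference among the genes called higher belonged to ppp1r14aa (ENSDARG00000011239), which codes for an inhibitor of protein phosphatase 1. It had 623, 495, 606, 1042 and 664 CPM in eomesa-high cells, against 424, 0, 21.4, 0 and 0 CPM in the eomesa-low cells, in the order of falling eomesa. All 5 eomesa-high cells were high, and within the eomesa-low side the one high cell was 14-1, the cell next to the boundary. The difference was 4.66, and the mean level was 7.71-fold higher, at 686 ± 209 CPM in eomesa-high and 89.0 ± 187 CPM in eomesa-low cells.

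The most abundant of the leading genes was olfm1a (ENSDARG00000018270), an olfactomedin that neurons secrete. Its level was 1504, 1177, 2134, 1695 and 1954 CPM in eomesa-high cells, against 409, 171, 528, 56.1 and 365 CPM in eomesa-low cells. Every eomesa-high cell lay well above the highest eomesa-low cell, which was cell 22. The means differed 5.53-fold. Spondin 1a (spon1a), another secreted protein that binds extracellular matrix, had 414, 395, 610, 335 and 426 CPM in eomesa-high cells, against 118, 33.9, 11.9, 184 and 0.786 CPM in eomesa-low cells, a difference of 3.18.

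Genes of intracellular signalling were also among the leading calls. The phospholipase C gene plch2a, whose product releases calcium-mobilizing messengers, had 712, 300, 766, 504 and 244 CPM in eomesa-high cells, against 133, 0, 135, 59.0 and 0.786 CPM in eomesa-low cells. For rap1gap, which switches off the small GTPase Rap1, the values were 362, 414, 265, 243 and 743 CPM in eomesa-high cells and 63.3, 0, 52.8, 0.401 and 231 CPM in eomesa-low cells, and here cell 5, the cell with the least eomesa, came close to the eomesa-high range. Calls outside the rule for naming, picked after their values were seen, include stim1a, a sensor of calcium stores in the endoplasmic reticulum (48.6 ± 37.4 CPM in eomesa-high, 4.24 ± 4.90 CPM in eomesa-low cells), and rem2, a GTPase that restrains voltage-gated calcium channels (212 ± 64.3 CPM in eomesa-high, 63.8 ± 45.6 CPM in eomesa-low cells).

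Several genes called higher were close to absent from the eomesa-low side. The adaptor gene traf4b had no read in any eomesa-low cell, and 249, 1.39, 63.1, 117 and 210 CPM in eomesa-high cells. In summed reads it was at least 359.9-fold higher, taking 3 reads over the whole eomesa-low side as the floor. Its level in cell 20 was itself near 0, so the wide margin came from 4 cells. For mlec, which codes for malectin, a lectin of the endoplasmic reticulum, the level was 159, 3.25, 57.7, 41.1 and 533 CPM in eomesa-high cells, against 2 reads in all in the eomesa-low cells, both in cell 5. Most of the 1763 reads on the eomesa-high side were those of cell 21, and cell 20 was again near 0. In all, 7 of the 75 genes had 0 reads in the eomesa-low side, and 52 of the 75 reached 10 CPM in each eomesa-high cell.

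**Figure D2:**
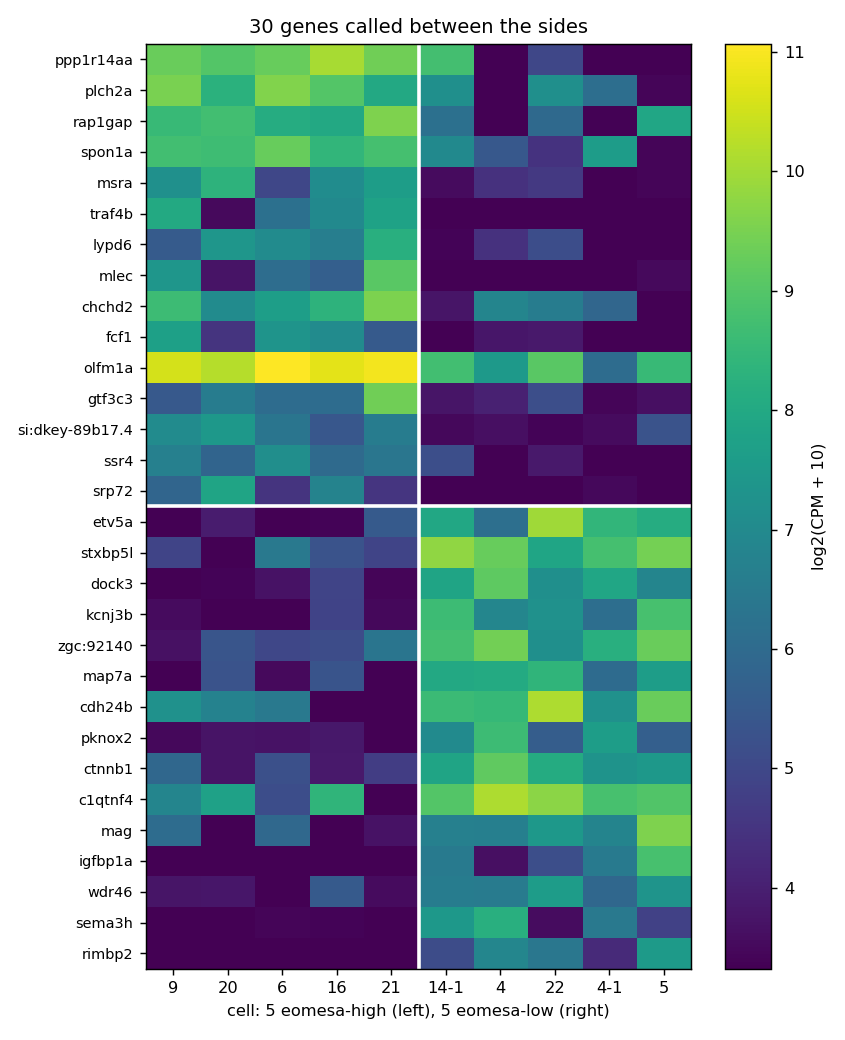
Level, as log2(CPM + 10) in color, of the 15 genes with the largest difference called higher in eomesa-high cells (upper block) and the 15 called lower (lower block), in each of the 10 synchronized cells (columns, in falling order of eomesa, eomesa-high left). The split between the blocks is in place by construction, and cell 14-1, first of the eomesa-low columns, is bright for ppp1r14aa at 424 CPM.

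Genes of protein targeting to the endoplasmic reticulum stood among those called higher: ssr4, a subunit of the translocon-associated complex, and srp72 and srp54, subunits of the signal recognition particle that brings nascent secretory proteins to the membrane. The level of ssr4 was 93.8, 46.5, 133, 53.7 and 71.5 CPM in eomesa-high cells, against 26.2, 0, 4.40, 0 and 0 CPM in eomesa-low cells. For srp72 there were 826 reads in eomesa-high and 3 reads in eomesa-low cells. The 18 genes of that machinery that were measured form a list drawn up after the values were seen. Of these, 12 had a higher and 6 a lower mean. The median difference was 0.22, against 0.03 for all 13525 genes of at least 1 CPM, so the list as a whole leaned little. Of the 16 members at 10 CPM or more, 3 were called higher and 0 lower, against 0.83% called higher among all genes described. Because the list was chosen after the values were seen, no excess is read from these 3 calls.

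The nuclear genes of the respiratory chain code for subunits of the complexes that pass electrons to oxygen and make ATP. This list too was drawn up after the values were seen. Of its 80 measured members 75 had a higher mean in eomesa-high cells and 5 a lower one, 44 were at least 2-fold higher and 2 at least 2-fold lower, and the median difference was 1.1. Among all genes of at least 1 CPM 46.7% had a higher mean. Over the alternatives tried, the median ran from 0.89 to 1.47, and it was 1.0 without cells 4-1 and 5. Of the 79 members at 10 CPM or more, 1 was called higher, too few to set against the 0.830% of all genes. It was atp5mc1, a subunit of the membrane ring of ATP synthase. Its level was 468, 529, 600, 638 and 545 CPM in eomesa-high cells, against 181, 118, 373, 370 and 7.07 CPM in eomesa-low cells.

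The summed level of the list was 12317, 19717, 12197, 20897 and 23195 CPM in eomesa-high cells, against 8601, 6171, 10948, 14051 and 3831 CPM in eomesa-low cells. The sides overlapped through cell 4-1, which lay above the eomesa-high cells 9 and 6. Genes detected, in the same order of cells, were 8377, 10824, 7980, 10878 and 9447 on the eomesa-high side. On the eomesa-low side they were 8532, 8686, 9784, 10150 and 6878. On both sides the cell with the fewest genes detected, cell 6 or cell 5, had the lowest sum. The part of genes detected in the difference between the sides was not tested. Beside the chain itself, slc25a5, which carries ADP and ATP across the inner mitochondrial membrane, was called higher at 2417 ± 610 CPM in eomesa-high and 1047 ± 438 CPM in eomesa-low cells. The calls also held chchd2, a protein of the mitochondrial intermembrane space (349 ± 238 CPM in eomesa-high, 48.8 ± 47.5 CPM in eomesa-low cells), suclg1 of the citric acid cycle (211 ± 89.0 CPM in eomesa-high, 46.5 ± 34 CPM in eomesa-low cells) and dlat of the pyruvate dehydrogenase complex (62.8 ± 32.7 CPM in eomesa-high, 6.17 ± 7.22 CPM in eomesa-low cells). The mitochondrial genome's own transcripts took shares of the reads that overlapped between the sides, as given above, and glycolysis genes were near the middle, 11 of 25 with a higher mean and a median difference of -0.11.

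Ribosomal genes leaned the same way with more overlap. Of 74 mitochondrial ribosomal protein genes 54 had a higher and 20 a lower mean (median difference 0.75), and of 78 cytosolic ones 61 had a higher and 17 a lower mean (median difference 0.46). Their summed levels overlapped: the cytosolic sum was 11734 to 37321 CPM in eomesa-high cells and 8453 to 31957 CPM in eomesa-low cells. With cell 14-1 placed among the eomesa-high cells the median of the cytosolic list was 0.01. Both lists were drawn up after the values were seen.

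**Figure D3:**
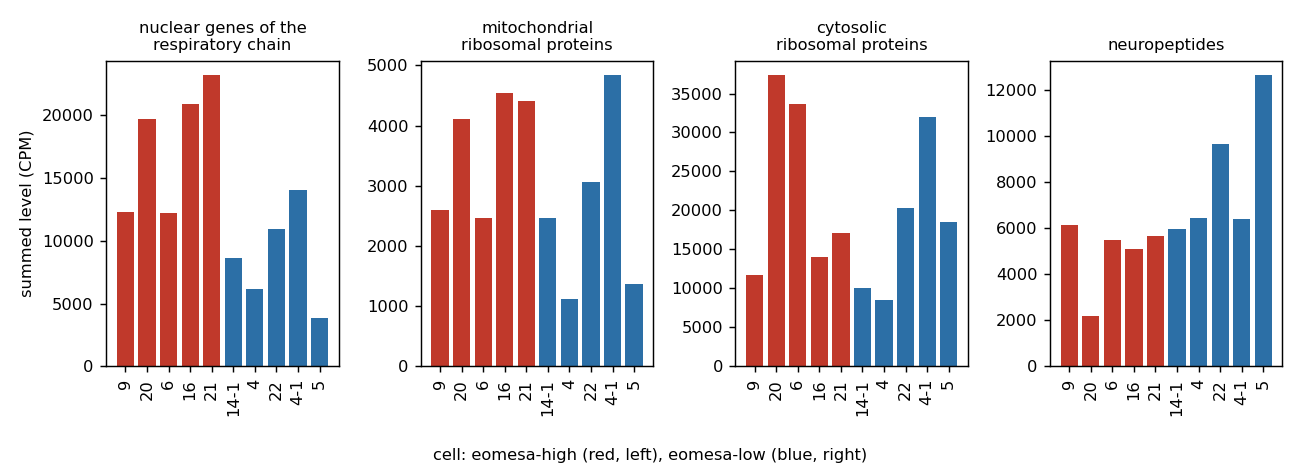
Summed level, in CPM (y axis, from 0, a scale of its own in each panel), of 4 gene lists in the eomesa-high cells (red) and the eomesa-low cells (blue), in falling order of eomesa. The respiratory chain sum is 12197 to 23195 CPM in eomesa-high cells and 3831 to 14051 CPM in eomesa-low cells, while in the neuropeptide sum cells 22 and 5 stand highest.

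In the opposite direction the largest difference was that of etv5a (ENSDARG00000069763), a transcription factor of the ETS family that acts downstream of fibroblast growth factor signalling. It had 0, 5.11, 0, 0.502 and 35.3 CPM in eomesa-high cells, against 242, 61.6, 980, 329 and 266 CPM in eomesa-low cells, a difference of -4.23 and a mean 45.9-fold lower in eomesa-high cells. It was near 0 in 4 of the eomesa-high cells and present in each eomesa-low one. Among the other transcription factor genes, pknox2, of the TALE homeobox class, averaged 2.33 ± 1.64 CPM in eomesa-high and 154 ± 142 CPM in eomesa-low cells.

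Some of the genes called lower act at the synapse and the membrane. The gene stxbp5l codes for a tomosyn, which holds back vesicle fusion by binding SNARE proteins. Its level was 20.3, 0, 77.0, 29.6 and 19.8 CPM in eomesa-high cells, against 862, 609, 226, 430 and 686 CPM in eomesa-low cells, 19.2-fold lower in the mean. The active-zone scaffold gene rimbp2 had no read in any eomesa-high cell and 24.5, 108, 74.8, 8.82 and 177 CPM in eomesa-low cells, at least 209.5-fold lower in summed reads over a floor of 3 reads.

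The potassium channel gene kcnj3b (ENSDARG00000062217) codes for a GIRK channel subunit, a channel that receptors coupled to inhibitory G proteins open. It had 1.76, 0, 0, 19.6 and 1.29 CPM in eomesa-high cells, against 388, 107, 140, 59.4 and 439 CPM in eomesa-low cells. All 5 eomesa-low cells held the transcript and only cell 16 on the eomesa-high side exceeded 2 CPM. The difference was -3.82. Of 25 potassium channel genes measured, 10 had a higher and 15 a lower mean, and the median difference was -0.20. Among the 20 of them that reached the 10 CPM needed for a call it was the only one called, too few to set against the 0.520% of all genes called lower.

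Regulators of the cytoskeleton and of adhesion were also among the genes called lower. For dock3, an activator of the GTPase Rac in axons, the values were 0, 0.465, 3.08, 20.1 and 0.861 CPM in eomesa-high cells and 221, 557, 134, 229 and 105 CPM in eomesa-low cells, 50.9-fold lower in the mean. The cadherin gene cdh24b had 141, 97.1, 77.0, 0 and 0 CPM in eomesa-high cells, against 382, 357, 1108, 141 and 620 CPM in eomesa-low cells, where eomesa-high cell 9 and eomesa-low cell 4-1 were within 1 CPM of each other and the call rested on that margin. Beta-catenin (ctnnb1), which links cadherins to actin and carries Wnt signals, averaged 20.4 ± 19.5 CPM in eomesa-high and 271 ± 170 CPM in eomesa-low cells, a difference of -3.28. In the secreted C1q-like gene c1qtnf4 the means were 132 ± 135 CPM in eomesa-high and 675 ± 287 CPM in eomesa-low cells.

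**Figure D4:**
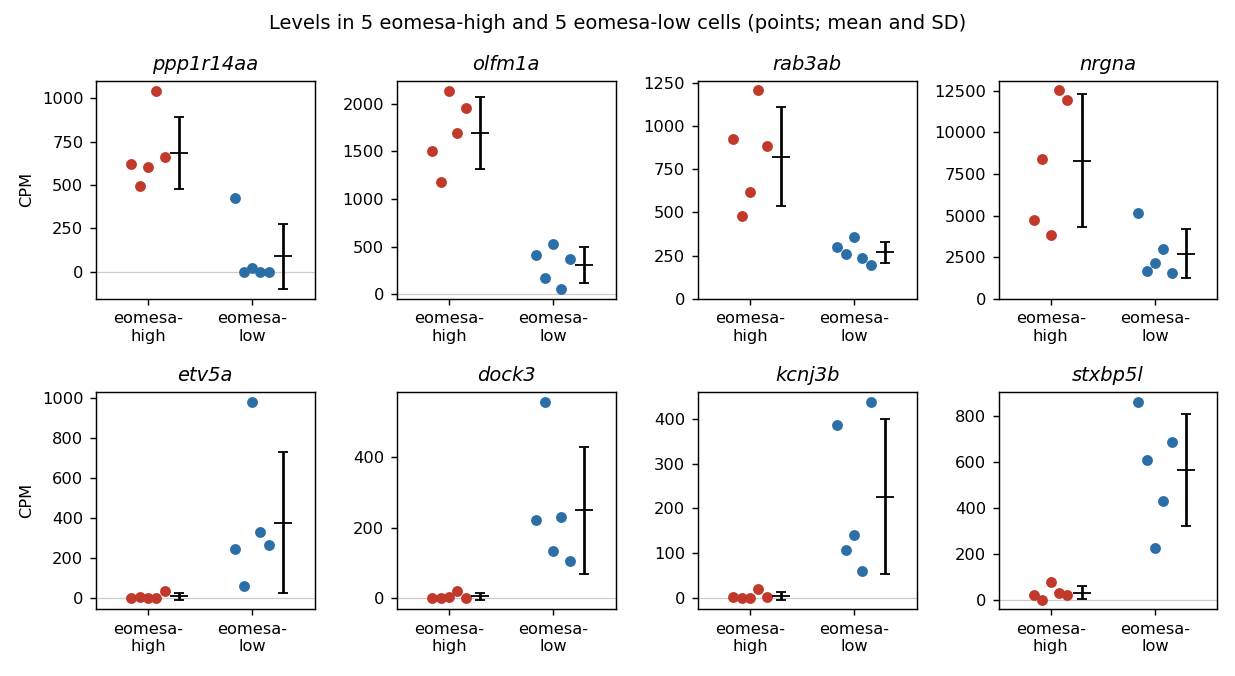
Level in CPM (y axis, a scale of its own in each panel) of 4 genes higher and 4 genes lower in eomesa-high cells, with points for cells, eomesa-high left, and a bar beside them for the mean with 1 SD. The sides do not meet for 7 of the genes, which is in place by construction, because these were called by the rule of no overlap. For nrgna, which was not called, cell 14-1 at 5168 CPM lies above the 2 lowest eomesa-high cells.

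Among pallial transcription factors no gene was called. Only 16 reached the 10 CPM needed for a call, too few to set against the 0.830% and 0.520% of all genes called. Of the 22 measured members 9 had a higher and 13 a lower mean, and the median difference was 0.16. The level of tbr1b, a T-box gene of pallial glutamatergic neurons, was 185, 581, 176, 1006 and 260 CPM in eomesa-high cells, against 93.5, 0, 446, 129 and 260 CPM in eomesa-low cells, with a difference of 1.68 and overlapping sides. Its paralog tbr1a was read in the eomesa-high cells 6 and 21 alone. In nr2f2, a nuclear receptor used in regional patterning of the forebrain, the means were 48.5 ± 35.7 CPM in eomesa-high and 343 ± 332 CPM in eomesa-low cells, and tbx21, another T-box gene, had reads in the eomesa-low cells 4, 4-1 and 5 only (23.1 ± 26.7 CPM). Means of broad pallial markers differed by less than their SD: foxg1a had 195 ± 93.0 CPM in eomesa-high and 217 ± 132 CPM in eomesa-low cells, and zbtb18 had 1143 ± 418 CPM in eomesa-high and 1090 ± 751 CPM in eomesa-low cells. For neurod6b the direction turned when single cells were left out, between -0.29 and 1.33.

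The glutamate transporters that load synaptic vesicles did not separate the sides. The level of slc17a6a averaged 225 ± 83.1 CPM in eomesa-high and 323 ± 175 CPM in eomesa-low cells, and that of slc17a6b 160 ± 138 CPM in eomesa-high and 124 ± 69.7 CPM in eomesa-low cells. For slc17a7a the values were 215, 0, 193, 21.1 and 10.8 CPM in eomesa-high cells, against 51.9, 2.51, 77.3, 44.5 and 2.36 CPM in eomesa-low cells. Of 5 GABAergic genes 4 had a lower mean, and for 2 of them the eomesa-low level was almost wholly that of cell 4-1. The gene gad2, which makes GABA, had 382 CPM in cell 4-1 and at most 1.14 CPM in the other eomesa-low cells, with a difference of -1.0 that became 0.05 when cell 4-1 was left out. The vesicular GABA transporter gene slc32a1 had 293 CPM in cell 4-1 and no read in the other eomesa-low cells, and its difference of -0.84 became 0.14 without that cell.

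All 12 measured neuropeptide genes had a lower mean in eomesa-high cells, with a median difference of -0.70, and none was called. Of all genes of at least 1 CPM, 46.7% had a higher mean. Only 8 of them reached the 10 CPM needed for a call, too few to set against the share of all genes called. In scg2b, a granin of dense-core vesicles, the level was 908, 63.6, 1158, 323 and 1037 CPM in eomesa-high cells, against 1414, 1284, 2053, 500 and 1937 CPM in eomesa-low cells, 2.06-fold lower in the mean and overlapping through cell 4-1. Several other members rested on 1 eomesa-low cell. The genes penkb, cart2, pnoca and pthlha were each read in 1 eomesa-low cell only. For cart4 the eomesa-low mean of 575 ± 1231 CPM came from 2776 CPM in cell 5, and tac1, the precursor of substance P, had 2297 CPM in cell 4-1 and at most 3.77 CPM in any other of the 10 cells. With no read in eomesa-high cells, tac1 passed the filter of 1 CPM through the eomesa-low side, so its direction was fixed. Any other member read in eomesa-low cells only, such as penkb, cart2, pnoca and pthlha, could likewise only count as lower. The count of 12 therefore includes directions set by the filter, and no lean is read from it. Without cells 4-1 and 5, 3 of the 12 had a higher mean and the median difference was -0.33. The most abundant member, adcyap1b, which makes PACAP, averaged 3213 ± 951 CPM in eomesa-high and 3493 ± 1345 CPM in eomesa-low cells.

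Some receptor, channel and adhesion lists leaned lower. Lower means were found for 7 of 8 metabotropic glutamate receptor genes (median difference -0.79), 13 of 17 AMPA, NMDA and kainate receptor genes (-0.29), 17 of 24 calcium channel genes (-0.38), 31 of 42 cadherin and synaptic adhesion genes (-0.42) and 34 of 53 axon guidance genes (-0.41). Sodium channel genes (8 of 12 with a lower mean, -0.07) and SK and HCN channel genes (3 of 6, -0.03) lay near the median of all genes. The metabotropic receptor gene grm3 had no read in eomesa-high cells and 269, 122, 6.91, 26.5 and 0 CPM in eomesa-low cells. Both grm3 and grm4, which was also unread in eomesa-high cells, could only count as lower. Among guidance receptors, plxna2 averaged 37.3 ± 40.4 CPM in eomesa-high and 380 ± 384 CPM in eomesa-low cells, with 1 eomesa-high cell above the lowest eomesa-low cell. Leaving aside the 4 lists drawn up after the values were seen, 24 of 30 lists had a median below the 0.03 of all genes. The lists come from the same cells and are not separate observations.

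Some single genes of the lists had a higher mean in eomesa-high cells. The sodium channel beta subunit gene scn1ba had 274, 79.4, 299, 47.7 and 157 CPM in eomesa-high cells, against 8.55, 1.26, 72.9, 0 and 0 CPM in eomesa-low cells, where cell 22 alone reached the eomesa-high range. The complexin gene cplx3a, a clamp on vesicle fusion, averaged 294 ± 188 CPM in eomesa-high and 41.1 ± 68.5 CPM in eomesa-low cells, a difference of 3.32. The vesicle GTPase gene rab3ab was called higher, with 923, 479, 616, 1210 and 887 CPM in eomesa-high cells and 299, 258, 358, 236 and 194 CPM in eomesa-low cells. The neurexin gene nrxn3b, a presynaptic adhesion receptor, averaged 309 ± 106 CPM in eomesa-high and 72.7 ± 108 CPM in eomesa-low cells, with cell 14-1 inside the eomesa-high range. Neurogranin a (nrgna), a calmodulin-binding protein of dendrites, was the most abundant of the genes named here at 8289 ± 4002 CPM in eomesa-high and 2706 ± 1488 CPM in eomesa-low cells. Of the 33 vesicle release genes 15 had a higher and 18 a lower mean (median difference 0.08).

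**Figure D5:**
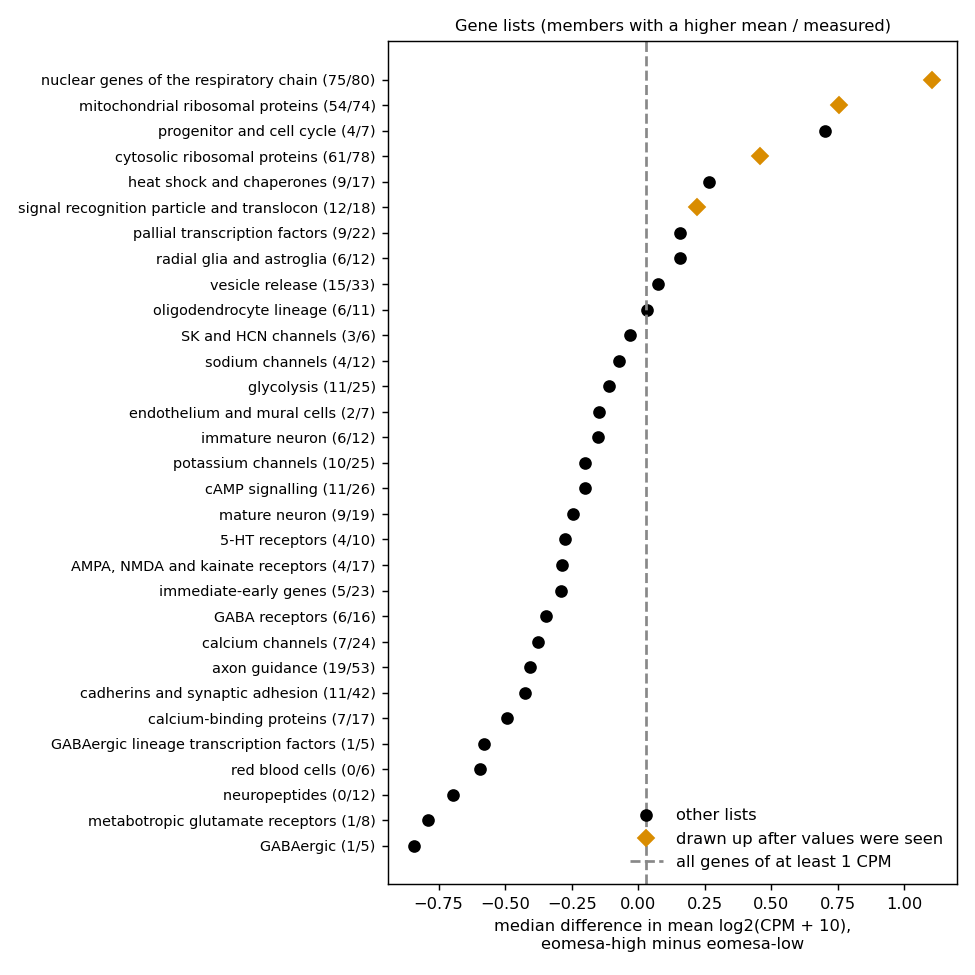
Median difference in mean log2(CPM + 10), eomesa-high minus eomesa-low (x axis), of each list with at least 5 measured members, with diamonds for the 4 lists drawn up after the values were seen. The numbers beside each name are members with a higher mean and members measured, and the dashed line is the median of all genes of at least 1 CPM, 0.03. The respiratory chain list stands furthest right at 1.1 and the GABAergic list furthest left at -0.84. That GABAergic median is the value of slc32a1, which on the eomesa-low side was read in cell 4-1 alone. Without that cell the difference of slc32a1 became 0.14.

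The serotonin receptor gene htr7a and the potassium channel gene kcnn3, on which other comparisons of these cells turn, did not separate the sides either. The level of htr7a was 26.9, 0.929, 37.7, 146 and 115 CPM in eomesa-high cells, against 113, 2.51, 24.5, 3.61 and 0 CPM in eomesa-low cells. Reads of it were present in 9 of the 10 synchronized cells, high or low in eomesa, and in none of the 10 non-synchronized cells. For kcnn3, an SK channel gene, the means were 160 ± 103 CPM in eomesa-high and 262 ± 111 CPM in eomesa-low cells, a difference of -1.04 with overlap.

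The 10 non-synchronized cells, which the ranking did not use, were divided in the same way into the 5 with more and the 5 with less eomesa, as a description. Of the 75 genes called higher, 34 (45.3%) were higher in the upper 5 of those cells, against 41.6% of all genes described, and of the 47 called lower, 28 (59.6%) were lower, against 57.0% of all. Both shares were near those of all genes, and 0 genes were called in both sets of cells. How many genes the rule called among the non-synchronized cells alone is not given here, so nothing is read from that 0. The boundary there fell between 135 and 129 CPM of eomesa, far below the 893 to 1130 CPM of the synchronized cells. For 2 genes picked after their values were seen, the levels there were as follows: ppp1r14aa had 187 and 238 CPM in the non-synchronized cells with the most eomesa, 19-1 and 10-1, and at most 25.2 CPM in the others, and etv5a had 0 and 29.8 CPM in cells 19-1 and 10-1, 27.6 CPM in cell 6, 34.6 CPM in cell 18, which had little eomesa, and 163 to 670 CPM in the other 6 cells. Other leading genes called higher went the other way there, among them ssr4 with a difference of -1.71 and rap1gap with -0.86. The respiratory chain list did not follow either, with a median difference of -0.56 between the 5 cells with more and the 5 with less eomesa. These 2 sets also differed in genes of GABA synthesis and transport. Their summed level was 1.13, 0.414, 3.54, 2990 and 2.86 CPM in the upper cells 19-1, 10-1, 15, 6 and 10. In the lower cells 22, 13, 18, 5 and 17 it was 579, 750, 3030, 4424 and 59.2 CPM. The part of this in the comparison was not tested.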

How the data were processed

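The authors collected single Dc neurons by glass pipette and sequenced 75 bp paired-end reads. Their methods describe stranded mRNA libraries while a diagram names Smart-seq2, and which was used is not settled here. The deposited table holds raw counts per gene for 18820 genes in 20 libraries, with no normalization. Per the submitters' processing notes, the build was danRer11 and edgeR 3.14.0 was used; an aligner or counter was not given in the sources used here. Symbols are those of the table: 58 rows lack one and 515 rows carry one that occurs again. Reads of near-identical copies may be split between them.

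CPM was computed from each library's total, from 795838 to 2493351 counts in the synchronized cells. At the lowest total, 1 read is 1.26 CPM, so low values are coarse. Differences were taken in mean log2(CPM + 10), with the added 10 CPM understating changes in low genes. Calls needed a mean of at least 10 CPM over 10 cells, a difference of 1 and no overlap, and list members a mean of 1 CPM. A list member read on one side only passed through that side, so its direction was fixed. Differences between the sides have no replicate check. Genes were named as the 15 called per direction with the largest difference whose direction held in summed reads and whichever cell was dropped, up to 5 per direction read on one side only, pallial transcription factor and glutamatergic genes, up to 4 members per other list with the largest difference, and htr7a, slc17a7a and kcnn3. Any called gene meets both conditions of direction, because its sides do not overlap. Genes named beyond these (adcyap1b, atp5mc1, cart2, dlat, penkb, pnoca, pthlha, rem2, slc25a5, srp54, stim1a and suclg1) were chosen after their values were seen. The members and lists were chosen with earlier results of these data known. Of 748 genes in 30 lists, 132 were not found by symbol. Cells 4 and 4-1 were counted as 2 cells because the labels list them as separate samples. Their counts differed about as much as those of other pairs (chi-square per degree of freedom 131, against 79.6 to 203 in the other 44 pairs, a measure of counting error only). The work used matplotlib 3.10.9, scipy 1.17.1, pandas 2.3.3 and numpy 2.4.6 under Python 3.11.15, and R 4.3.3 with edgeR 4.0.16 (TMM) and DESeq2 1.42.0 (poscounts) for scaling factors only. The scripts were tested on simulated data. Alternatives were those scalings, a pseudocount of 1 CPM, other filters, thinning to 795838 counts, totals without the 13 mitochondrial genes, fewer cells a side, each cell left out, and, chosen after seeing the data, 6 cells against 4.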

Additional observations from a re-analysis of the deposited data

Results flagged for a closer look

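In groups of 5 cells, a cell far from the others was looked for in library measures and in the genes described cell by cell. The rule was a gap of more than 0.71 of the range, and 17 of 96 groups had such a cell. For normally distributed values this rule flags about 1 group in 20. Levels in single cells, often 0, need not follow that distribution, so no excess is read from the count. A group with 0 reads throughout, such as traf4b in eomesa-low cells, could not be flagged. Among marker sums, GABA synthesis and transport genes stood at 683 CPM in eomesa-low cell 4-1 (next 6.27), oligodendrocyte genes at 1859 CPM in the same cell (next 266), and red blood cell genes at 4381 CPM in eomesa-low cell 5 (next 366) and 155 CPM in eomesa-high cell 6 (next 14.9). Microglia genes stood at 37.6 CPM in eomesa-high cell 20 (next 5.52) and 381 CPM in eomesa-low cell 14-1 (next 32.2), and endothelial genes at 271 CPM in eomesa-high cell 9 (next 66.4).

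Among genes with a higher mean in eomesa-high cells, ppp1r14aa had 424 CPM and htr7a 113 CPM in eomesa-low cell 14-1, rap1gap 231 CPM in eomesa-low cell 5 and scn1ba 72.9 CPM in eomesa-low cell 22. Among genes with a lower mean, eomesa-high cell 16 had 20.1 CPM of dock3 and 19.6 CPM of kcnj3b, eomesa-high cell 21 had 35.3 CPM of etv5a and eomesa-high cell 9 had 309 CPM of scg3. In eomesa-low cell 4, dock3 reached 557 CPM and ctnnb1 564 CPM. In ppp1r14aa and htr7a the cell set apart is the one with the most eomesa of its side. The rule of no overlap kept out of the 75 genes called higher any gene in which cell 14-1 reached the eomesa-high cells. Which cell came nearest in these 75 genes therefore cannot show whether cell 14-1 stands apart. The eomesa-low cell nearest to the eomesa-high side was cell 22 for 23 of them and cell 4 for 16. It was cells 14-1 and 4-1 for 11 each and cell 5 for 7, with 7 ties. For the 47 called lower it was cells 14-1 and 4-1 for 13 each and cells 4, 22 and 5 for 7 each.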

How the results depend on the processing

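The number of genes called depended most on how many cells had to stay apart. With 4 cells a side 218 genes were called higher and 126 lower, with 3 a side 504 and 373, and without cells 4-1 and 5 181 and 210. Leaving out 1 cell in turn gave 91 to 164 genes called higher and 62 to 104 called lower. Fewer cells make the condition of no overlap easier to meet. With 6 cells against 4, split at the widest step in eomesa, chosen after seeing the data, 88 and 58 genes were called, of which 11 and 13 were among the 75 and 47. A called gene can be shared there only if cell 14-1 lies between the other 4 eomesa-low cells and the eomesa-high cells. The rule itself therefore drops many calls, and other eomesa-low cells were not moved in the same way. The other scalings, filters, the pseudocount and thinning gave 57 to 83 and 42 to 48 genes. Over all alternatives 25 list medians and 81 gene differences moved by more than the spread, while 689 and 3489 did not. For member counts, 34 moved by more than a set ratio and 680 did not. No call was reversed. With cells left out, fewer cells a side, other filters or another pseudocount this outcome was fixed, because the sides of a called gene do not overlap. The median of all genes described was 0.11 after either scaling, against 0.08. No paired analysis was possible because the sides are not labelled groups and the label numbers only name cells. At this depth a gene without a read on one side is bounded at 0.299 CPM over the eomesa-high and 0.379 CPM over the eomesa-low reads.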

Other observations

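Immediate-early genes, which neuronal activity induces, had a lower mean in eomesa-high cells for 18 of 23 measured members (median difference -0.29), and none was called. The 21 members at 10 CPM or more are too few to set against the share of all genes called. The level of jun averaged 4.88 ± 7.47 CPM in eomesa-high and 79.6 ± 102 CPM in eomesa-low cells (SD, n = 5 each), with the eomesa-low reads in cells 22, 4-1 and 5 almost alone. In the other direction fosl2 averaged 470 ± 204 CPM in eomesa-high and 184 ± 140 CPM in eomesa-low cells, with overlap. All cells had been through CAS exposure and imaging, and the time from exposure to collection of each cell is not known here.

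Of 17 calcium-binding protein genes 7 had a higher and 10 a lower mean (median difference -0.49), and none was called. With 14 of them at 10 CPM or more, these too are few to set against the share of all genes called. The visinin-like gene vsnl1a had 294, 324, 272, 354 and 414 CPM in eomesa-high cells, against 537, 420, 0, 1.2 and 44.0 CPM in eomesa-low cells, so the 2 eomesa-low cells with the most eomesa lay above all the eomesa-high cells and the other 3 far below. The parvalbumin gene pvalb7 had no read in eomesa-high cells, and 359 CPM in eomesa-low cell 4, against at most 7.41 CPM in the other eomesa-low cells. Among 16 GABA receptor genes 6 had a higher and 10 a lower mean, and gabrg1 was called higher with 426 reads in eomesa-high and 3 reads in eomesa-low cells, although eomesa-high cells 9 and 16 held only 1.76 and 2.01 CPM.

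The remaining lists held no called gene, and each had too few members at 10 CPM or more to set against the share of all genes called. Higher means were found for 9 of 19 mature neuron genes, 6 of 12 immature neuron genes, 4 of 7 progenitor and cell cycle genes, 4 of 10 serotonin receptor genes, 11 of 26 cAMP signalling genes, 3 of 6 SK and HCN channel genes, 4 of 12 sodium channel genes and 9 of 17 chaperone genes. Among markers of other cell types the counts were 6 of 12 for radial glia, 6 of 11 for the oligodendrocyte lineage, 2 of 7 for endothelium, 0 of 4 for microglia, 0 of 6 for red blood cells, 1 of 5 for GABAergic lineage transcription factors and 0 of 1 for genes of mouse Cajal-Retzius and mitral cells. The myelin gene mag, outside these lists, was called lower. It had 0 to 56.4 CPM in eomesa-high cells and 91.7 to 742 CPM in eomesa-low cells.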
